A study of Mus musculus with 20 samples.

Results

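The genes described here are 33 enzymes, regulators and transporters of glycolysis, chosen by gene symbol and matched to the Entrez gene IDs of the count tables, out of 23090 genes in all. RNA of myeloid-derived suppressor cells, which are immature myeloid cells that gather in tumours, was counted per gene in 20 libraries. The groups were 5 libraries each of CBPi-treated granulocytic cells (CBPi gMDSC), vehicle-treated granulocytic cells (vehicle gMDSC), CBPi-treated monocytic cells (CBPi mMDSC) and vehicle-treated monocytic cells (vehicle mMDSC). CBPi is GNE-781, which blocks the bromodomains by which CBP and EP300, a pair of histone acetyltransferases, bind chromatin. The vehicle is named MCT in the labels.

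All 4 groups came from female SCID.beige mice, aged 6 to 8 weeks, which lack T cells, B cells and functional NK cells, so the host has innate myeloid cells but no adaptive immunity. Tumours grew under the skin of the flank from MDA.MB.231-X1.1 cells, a derivative of human breast carcinoma cells, or from CT26, a mouse colon carcinoma line. The labels do not tie a library to a tumour line, so line and group cannot be told apart. Oral dosing at 25 mg/kg, or with vehicle alone, was given BID for 7 days once tumours averaged 150 to 200 mm3. Sorting took cells positive for CD45, CD11b and Ly6C and negative for F4/80, with gMDSC positive and mMDSC negative for Ly6G. Nothing in the labels says which libraries came from separate mice, so p-values measure the spread between these libraries, part of which may be technical.

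Glycolysis splits glucose into pyruvate in the cytosol. Glucose enters through facilitative transporters, hexokinases trap it as a phosphate, and phosphofructokinase commits it to the pathway under the control of fructose 2,6-bisphosphate, which the PFKFB enzymes make and break down. Aldolase and the triose enzymes yield pyruvate, which lactate dehydrogenase turns into lactate for export or pyruvate dehydrogenase passes to mitochondria unless its kinases switch it off. Neutrophils have few active mitochondria and are known to rely on glycolysis and on stored glycogen, and many of these genes are known targets of the hypoxia-inducible factors, which recruit CBP and EP300.

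Library totals, in units of 1e6 counts, ran from 19.74 to 22.43 in CBPi gMDSC and from 12.37 to 23.27 in vehicle gMDSC. In the same units they ran from 19.49 to 26.64 in CBPi mMDSC and from 13.51 to 23.23 in vehicle mMDSC. Levels are given as CPM (counts per 1e6 counts of the library), scaled by TMM over the 20 libraries. Levels of different genes are compared only per kb of the deposited gene width. The gMDSC libraries carried neutrophil RNA. Of 10 neutrophil markers, 8 of the 9 tested with vehicle were higher in gMDSC than in mMDSC, and all 10 under CBPi. They carried macrophage RNA as well. Of 10 macrophage markers, 5 were higher in gMDSC with vehicle (Trem2, C1qc, C1qb, C1qa and Apoe) and 1 was lower (Gpnmb). Under CBPi 3 were higher and 1 lower. The macrophage markers summed to 33980 to 77650 CPM in vehicle gMDSC and 22360 to 32030 CPM in vehicle mMDSC. Apoe made up most of these sums, at 20620 to 55680 CPM in vehicle gMDSC and 12850 to 21500 CPM in vehicle mMDSC. Ly6g itself, the gene behind the sorting antigen, was low, at 2.14, 0.916, 0.752, 0.532 and 0.529 CPM in CBPi gMDSC and 9.20, 5.41, 5.34, 5.65 and 0.438 CPM in vehicle gMDSC. In mMDSC Ly6g was lower still, at 0 to 0.0392 CPM under CBPi and 0 to 0.404 CPM with vehicle. Adgre1, the gene of F4/80, was abundant in every library although the gate excluded that antigen, at 582 to 959 CPM in CBPi gMDSC, 628 to 1519 CPM in vehicle gMDSC, 438 to 642 CPM in CBPi mMDSC and 741 to 965 CPM in vehicle mMDSC. In these bulk libraries fewer cells of a type and less RNA per cell cannot be told apart.

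Under CBPi, members at several steps between glucose entry and lactate formation rose in gMDSC, among them Slc2a1, Slc2a3, Pfkl, Pfkfb3, Tpi1 and Ldha. On the same route Slc2a6, Hk3, Pfkm, Pgk1, Pgam1, Eno1 and Pkm did not pass. In gMDSC 16 of the 32 members tested rose and 1 fell (edgeR's quasi-likelihood test, Benjamini-Hochberg adjusted p under 0.05 over all genes), where 4.18% of all genes tested rose and 5.52% fell. Pdk4 was the member that no comparison could test, with 0 to 7 counts in a library. A log2 value is followed by its standard error after the ± sign. The median log2 fold change of the members was 1.14, against 0.00307 over all genes tested. In mMDSC 4 of the 32 members rose and 1 fell, where 3.02% of all genes tested rose and 5.54% fell, and the median log2 fold change of the members was 0.169, against 0.00805 over all genes. Every CBPi library lay above every vehicle library for 16 members in gMDSC (4.94% of all genes) and for 5 members in mMDSC (4.21% of all genes), and below it for 1 member in each population (7.23% of all genes in gMDSC and 5.57% in mMDSC). All 4 members that rose in mMDSC, Aldoa, Tpi1, Eno2 and Pdk1, also rose in gMDSC, and Ldhb fell in both populations. The count of 4 in mMDSC became 1 without vehicle mMDSC library 2 and 0 in a fit over all 20 libraries. As single libraries were left out, Tpi1 and Eno2 each lost the mMDSC call in 5 fits and Aldoa in 3. Their adjusted p values reached 0.0639, 0.0791 and 0.0627.

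**Figure D1:**
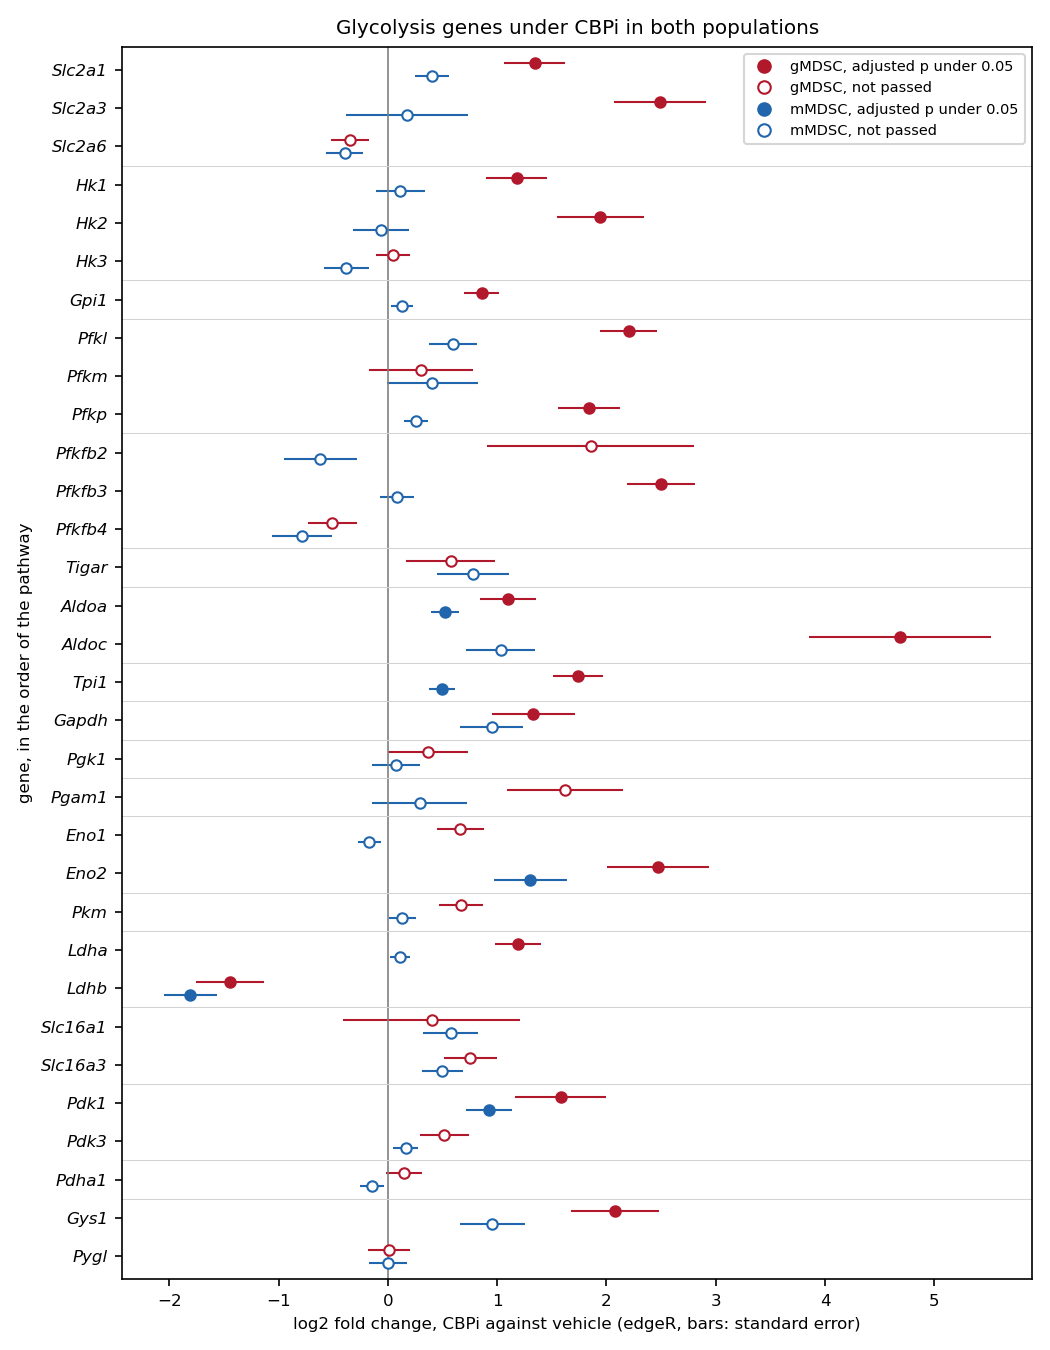
Log2 fold change of CBPi against vehicle (x axis, bars are standard errors of the edgeR fit, 5 libraries against 5) for the 32 members tested, in pathway order down the y axis, in gMDSC (red) and mMDSC (blue); filled points have adjusted p under 0.05. In gMDSC 16 members have filled points to the right of 0, in mMDSC 4 have, and Ldhb lies to the left of 0 in both.

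The responses of the populations were set against each other by an interaction term over the 20 libraries. It was higher in gMDSC for 6 members, Pfkl, Pfkp, Pfkfb3, Aldoc, Tpi1 and Ldha, and lower for 0, where 0.497% of all genes tested were higher and 0.229% lower. For the other 26 tested a difference between the populations was not shown. Pfkfb3 passed whichever library was left out, at a log2 difference of 2.37 ± 0.35, adjusted p = 0.00274. The other 5 each lost the call in at least 2 of the 20 fits that left out a library, with adjusted p values up to 0.0578 for Aldoc, 0.0646 for Pfkp, 0.0766 for Tpi1, 0.0793 for Ldha and 0.0845 for Pfkl. The count of 6 became 1 without CBPi gMDSC library 7, 2 without vehicle gMDSC library 1 or 4, and 3 without vehicle gMDSC library 5 or CBPi mMDSC library 10.

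Promoters of these 6 members are shown because they are the ones whose response differed between the populations. Pfkfb3, Aldoc and Ldha have 2 windows each in the RefSeq table, of which the one at the gene's own 5′ end, or else the first listed, is shown. Each is the window from 250 bases before to 50 bases after a transcript start listed by RefSeq on GRCm38.p6, written 5′ to 3′ on the strand of the gene. Capitals mark ACGTG and GCGTG, the core letters of the hypoxia response element, on either strand (CACGT and CACGC when read on the other), where CACGTG counts once on each strand.
Pfkl: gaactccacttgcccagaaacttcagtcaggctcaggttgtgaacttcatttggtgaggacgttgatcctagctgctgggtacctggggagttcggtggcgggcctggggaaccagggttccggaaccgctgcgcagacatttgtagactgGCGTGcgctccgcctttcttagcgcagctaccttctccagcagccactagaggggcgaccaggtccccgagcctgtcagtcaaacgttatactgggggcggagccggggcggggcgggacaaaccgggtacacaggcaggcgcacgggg
Pfkp: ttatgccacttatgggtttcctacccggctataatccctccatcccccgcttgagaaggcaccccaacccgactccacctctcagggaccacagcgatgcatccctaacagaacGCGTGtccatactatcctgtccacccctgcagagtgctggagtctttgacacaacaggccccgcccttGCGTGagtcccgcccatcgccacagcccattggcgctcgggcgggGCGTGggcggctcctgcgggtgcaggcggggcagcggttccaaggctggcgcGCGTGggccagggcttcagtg
Pfkfb3: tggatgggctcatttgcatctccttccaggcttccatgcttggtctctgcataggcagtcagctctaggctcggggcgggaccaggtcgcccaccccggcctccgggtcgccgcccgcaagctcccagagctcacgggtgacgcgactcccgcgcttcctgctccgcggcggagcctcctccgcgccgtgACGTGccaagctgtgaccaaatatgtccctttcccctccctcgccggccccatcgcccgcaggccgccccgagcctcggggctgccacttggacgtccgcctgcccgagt
Aldoc: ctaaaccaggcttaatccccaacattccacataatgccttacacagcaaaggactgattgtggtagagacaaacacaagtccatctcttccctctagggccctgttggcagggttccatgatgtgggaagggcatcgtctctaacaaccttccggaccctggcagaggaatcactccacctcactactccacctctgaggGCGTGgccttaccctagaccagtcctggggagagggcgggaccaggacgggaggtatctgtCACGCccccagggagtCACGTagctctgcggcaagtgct
Tpi1: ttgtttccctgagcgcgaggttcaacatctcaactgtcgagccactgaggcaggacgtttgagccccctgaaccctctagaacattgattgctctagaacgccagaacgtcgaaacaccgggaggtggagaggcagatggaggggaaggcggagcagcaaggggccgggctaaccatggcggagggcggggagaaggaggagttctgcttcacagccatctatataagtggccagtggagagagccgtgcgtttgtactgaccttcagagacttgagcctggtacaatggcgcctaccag
Ldha: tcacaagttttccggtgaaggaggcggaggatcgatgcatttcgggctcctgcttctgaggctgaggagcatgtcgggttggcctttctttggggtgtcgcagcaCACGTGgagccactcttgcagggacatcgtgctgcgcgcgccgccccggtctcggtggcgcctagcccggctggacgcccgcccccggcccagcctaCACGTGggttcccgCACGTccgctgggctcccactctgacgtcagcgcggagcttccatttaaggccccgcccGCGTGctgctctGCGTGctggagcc
They lie at chr10:78009758-78010057 (minus strand), chr13:6648722-6649021 (minus), chr2:11553880-11554179 (minus), chr11:78322823-78323122 (plus), chr6:124814109-124814408 (minus) and chr7:46845554-46845853 (plus). The Ldha window held 5 matches to ACGTG and 2 to GCGTG, that of Pfkp 4 to GCGTG, that of Aldoc 1 and 2, that of Pfkfb3 1 to ACGTG, that of Pfkl 1 to GCGTG, and that of Tpi1 0. The windows not shown held 2 matches to ACGTG and 2 to GCGTG for Pfkfb3, 1 to GCGTG for Aldoc and 2 to GCGTG for Ldha. Over the 47 windows of the 32 members matched by symbol (Slc2a3 had no entry), 78.7% held at least 1 of these motifs, against 43.8% of the 32851 windows of all genes. Mean GC content was 60.3% in the members' windows and 53.8% in all windows, and these letters are GC-rich. A match describes the letters and is not evidence of binding.

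Among the glucose transporters, Slc2a1 encodes GLUT1, the general transporter of glucose into cells. It had 2460.2, 1789.6, 1039.9, 999 and 827 CPM in CBPi gMDSC, against 546, 535, 692, 659 and 449 CPM in vehicle gMDSC. The groups did not overlap, and the gene rose 2.53-fold (log2 fold change 1.34 ± 0.28, adjusted p = 0.0105). In mMDSC it had 208, 230.3, 203, 184 and 168 CPM under CBPi and 190, 163, 149.9, 98.8 and 144 CPM with vehicle, where the groups overlapped (log2 fold change 0.41 ± 0.16, adjusted p = 0.142). Slc2a3 encodes GLUT3, a transporter of high affinity found in neurons and leukocytes, and was far higher in gMDSC. It had 555, 452, 253, 193 and 182 CPM under CBPi, against 66.7, 76.5, 16.9, 80.4 and 56.7 CPM with vehicle. The lowest CBPi library lay above the highest vehicle library, and the gene rose 5.63-fold (log2 fold change 2.49 ± 0.42, adjusted p = 0.00328). In mMDSC Slc2a3 stayed at a few CPM, with 4.5, 6.08, 0.786, 4.66 and 4.28 under CBPi and 4.56, 3.84, 2.83, 0.693 and 6.00 with vehicle (log2 fold change 0.17 ± 0.56, adjusted p = 0.895). Slc2a6 encodes GLUT6, a transporter held mainly on internal membranes. It was the member of the 3 with a negative value in both populations, at log2 fold changes of -0.35 ± 0.18, adjusted p = 0.234 in gMDSC and -0.39 ± 0.17, adjusted p = 0.192 in mMDSC, neither of which passed. By CPM per kb, Slc2a6 made up 7.80% ± 2.59 of the 3 transporters in CBPi gMDSC, against 21.5% ± 1.82 in vehicle gMDSC, and Slc2a3 made up 16.9% ± 1.61, against 7.38% ± 3.09 (SD, n = 5 each, a description without a test). Slc2a1 had the largest share in every group.

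Among the hexokinases, Hk1, the form of most tissues, had 307, 286, 187, 166 and 156 CPM in CBPi gMDSC, against 109, 113, 45.5, 119 and 113 CPM in vehicle gMDSC. No libraries of the groups overlapped, and it rose 2.26-fold (log2 fold change 1.18 ± 0.28, adjusted p = 0.0187). The adjusted p reached 0.0567 when CBPi library 6 or 7 was left out. Hk2, the form induced in growing and hypoxic cells, had 106, 106, 50.1, 26.3 and 38.5 CPM in CBPi gMDSC and 11.5, 26.8, 13.4, 14.8 and 19.5 CPM in vehicle gMDSC. It rose 3.85-fold (log2 fold change 1.95 ± 0.40, adjusted p = 0.0098), although its lowest CBPi library lay just under its highest vehicle library. In mMDSC the values were 87.9, 151, 70.3, 122 and 123 CPM under CBPi, against 125, 91.0, 114, 64.9 and 116 CPM with vehicle, for Hk1. For Hk2 they were 23.1, 24.3, 17.1, 16.7 and 17.2 CPM under CBPi, against 31.4, 22.7, 16.2, 10.6 and 21.2 CPM with vehicle. Neither gene passed (log2 fold changes 0.11 and -0.06, adjusted p = 0.821 and 0.918). Hk3, the form typical of leukocytes, was the most abundant of the 3 per kb in every group. It had 447, 342, 357, 299.9 and 317 CPM in CBPi gMDSC and 412, 394, 312, 323 and 313 CPM in vehicle gMDSC, values that overlapped fully (log2 fold change 0.05 ± 0.15, adjusted p = 0.89). Hk3 had 155, 232, 131, 205 and 201 CPM in CBPi mMDSC, against 355, 198, 204, 182 and 258 CPM in vehicle mMDSC (log2 fold change -0.38 ± 0.21, adjusted p = 0.308). The share of Hk3 among the hexokinases by CPM per kb was thus 58.6% ± 6.78 in CBPi gMDSC, against 77.1% ± 5.33 in vehicle gMDSC. It was 61.2% ± 1.17 in CBPi mMDSC, against 68.2% ± 3.93 in vehicle mMDSC. Gpi1, the isomerase that follows, had 206, 184, 141, 145 and 137 CPM in CBPi gMDSC and 91.1, 95.6, 82.5, 105 and 86.0 CPM in vehicle gMDSC. Its groups did not overlap and it rose 1.81-fold (log2 fold change 0.86 ± 0.16, adjusted p = 0.00552). The mMDSC had 109, 119.9, 118, 102 and 112 CPM under CBPi and 111, 113, 96.6, 98.3 and 91.4 CPM with vehicle (log2 fold change 0.13 ± 0.10, adjusted p = 0.508).

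Pfkl, the liver-type subunit of phosphofructokinase, had 1099.6, 919, 573, 505 and 451 CPM in CBPi gMDSC, against 139.6, 148, 215, 150.3 and 137 CPM in vehicle gMDSC. Even the lowest CBPi library held more than the highest vehicle library, and Pfkl rose 4.60-fold (log2 fold change 2.20 ± 0.26, adjusted p = 0.000292). The mMDSC had 289.8, 307, 245, 270.3 and 230.2 CPM of Pfkl under CBPi and 266, 172, 149, 93.1 and 201 CPM with vehicle (log2 fold change 0.60 ± 0.22, adjusted p = 0.121). The log2 response was larger in gMDSC by 1.56 ± 0.35, adjusted p = 0.041. Pfkp, the platelet-type subunit, had 941, 775, 433, 386 and 419.5 CPM in CBPi gMDSC and 265, 138, 142, 164 and 141 CPM in vehicle gMDSC. It rose 3.58-fold without overlap (log2 fold change 1.84 ± 0.28, adjusted p = 0.0018). In mMDSC Pfkp had 328, 409.7, 371, 362 and 323 CPM under CBPi and 349.6, 289.8, 282, 263 and 304 CPM with vehicle (log2 fold change 0.26 ± 0.11, adjusted p = 0.177). The responses of Pfkp differed by 1.52 ± 0.32, adjusted p = 0.0283 on the log2 scale. Pfkm, the muscle-type subunit, stayed under 13 CPM in every library and did not pass in either population (log2 fold changes 0.30 in gMDSC and 0.41 in mMDSC).

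The PFKFB enzymes and Tigar set the level of fructose 2,6-bisphosphate, the strongest activator of phosphofructokinase. Pfkfb3, the inducible form with high kinase activity, had 1979, 1466, 687, 795 and 665 CPM in CBPi gMDSC, against 197, 233, 156, 239.8 and 187 CPM in vehicle gMDSC. The groups were far apart, and Pfkfb3 rose 5.65-fold (log2 fold change 2.50 ± 0.31, adjusted p = 0.000399). In mMDSC it had 87.8, 119, 68.9, 85.0 and 92.5 CPM under CBPi and 89.0, 78.5, 74.0, 79.9 and 103 CPM with vehicle, overlapping groups with a log2 fold change of 0.09 ± 0.16, adjusted p = 0.8. Pfkfb4, another form made in many tumours, had values that went the other way: 84.9, 74.6, 63.1, 71.4 and 66.2 CPM in CBPi gMDSC and 98.0, 129, 54.5, 135 and 107 CPM in vehicle gMDSC. Neither this nor the mMDSC values, 11.2, 34.2, 15.3, 23.1 and 27.8 CPM under CBPi and 39.4, 45.8, 34.8, 28.0 and 44.3 CPM with vehicle, passed (log2 fold changes -0.51 ± 0.22, adjusted p = 0.169 in gMDSC and -0.79 ± 0.27, adjusted p = 0.1 in mMDSC). The gMDSC value had an adjusted p of 0.0115 when vehicle library 3 was left out. By CPM per kb Pfkfb3 made up 93.2% ± 2.42 of the 3 PFKFB members in CBPi gMDSC, against 68.2% ± 4.44 in vehicle gMDSC. In mMDSC the share was 80.2% ± 4.45 in CBPi mMDSC, against 68.5% ± 3.75 in vehicle mMDSC. Its share in each CBPi library was above that in each vehicle library of the same population. Pfkfb2, at most 6.87 CPM, shares 65.8% of its coding 50-base words with another annotated gene and did not pass. Tigar, a phosphatase that removes fructose 2,6-bisphosphate, had 5.16 ± 0.999 CPM in CBPi gMDSC, 3.55 ± 1.44 CPM in vehicle gMDSC, 12 ± 4.01 CPM in CBPi mMDSC and 6.97 ± 2.93 CPM in vehicle mMDSC (SD, n = 5 each). It did not pass under CBPi (adjusted p = 0.402 in gMDSC and 0.177 in mMDSC).

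**Figure D2:**
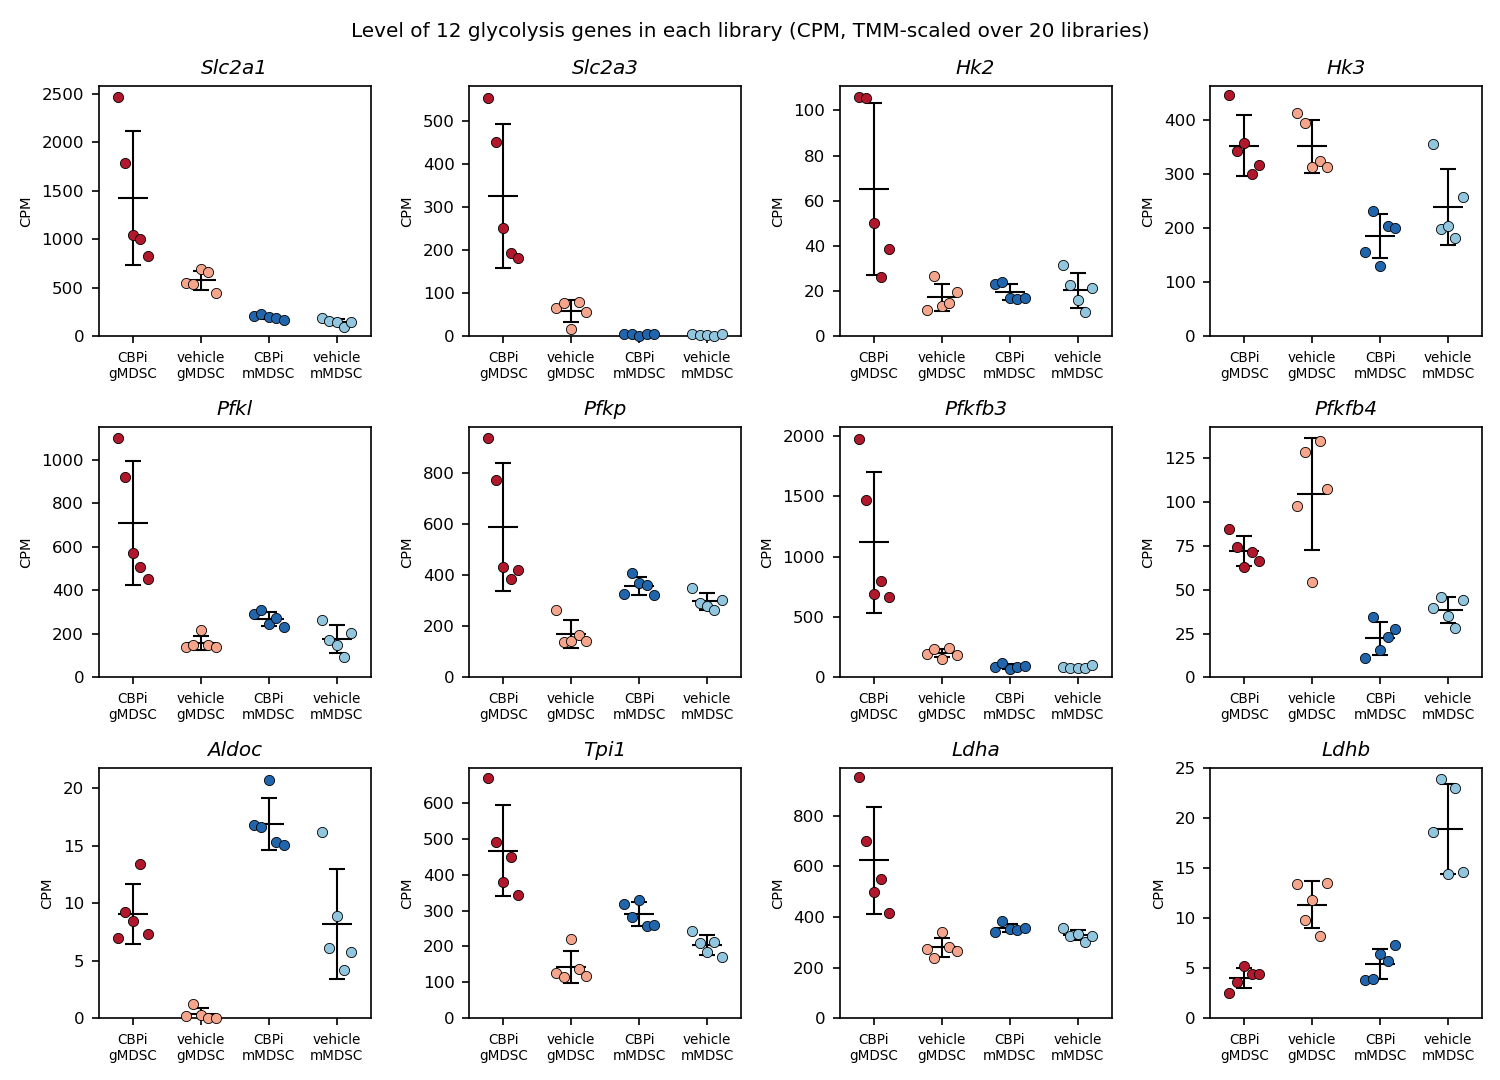
Levels of 12 members in each library (y axis, CPM scaled over 20 libraries) for CBPi gMDSC, vehicle gMDSC, CBPi mMDSC and vehicle mMDSC; points are libraries, in title order within a group, horizontal bars are means and error bars SD (n = 5). Slc2a1, Slc2a3, Pfkl, Pfkp, Pfkfb3, Aldoc, Tpi1 and Ldha lie higher in every CBPi gMDSC library than in every vehicle gMDSC library, Ldhb lies lower, and libraries 6 and 7 (the first 2 points) lead the CBPi gMDSC for most of them.

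Aldoa, the main aldolase, had 2226, 1649, 1248, 1434 and 1163 CPM in CBPi gMDSC and 719, 546, 1219.5, 749.6 and 481 CPM in vehicle gMDSC. It rose 2.14-fold (log2 fold change 1.10 ± 0.26, adjusted p = 0.0184), with 1 vehicle library, library 3, above the lowest CBPi library. In mMDSC the groups did not overlap, with 962, 905, 1059, 821 and 833 CPM under CBPi, against 802, 531, 662, 630.4 and 531 CPM with vehicle. Aldoa rose 1.44-fold (log2 fold change 0.53 ± 0.13, adjusted p = 0.0226). Aldoc, the brain-type aldolase, had 6.99, 9.22, 8.43, 13.4 and 7.30 CPM in CBPi gMDSC (108 to 252 counts), against 0.200, 1.27, 0.286, 0 and 0.0438 CPM in vehicle gMDSC (0 to 15 counts). It rose with a log2 fold change of 4.68 ± 0.83, adjusted p = 0.00449, a size that ran from 4.34 to 6.21 as single libraries were left out. Aldoc in mMDSC had 16.8, 16.6, 20.7, 15.3 and 15 CPM under CBPi and 16.1, 6.13, 8.88, 4.16 and 5.73 CPM with vehicle (log2 fold change 1.03 ± 0.32, adjusted p = 0.063). The interaction of Aldoc was 3.66 ± 0.77, adjusted p = 0.0323, and ran from 3.28 to 5.18 as single libraries were left out. Aldoc made up at most 2.27% of the aldolase level per kb in any library. Tpi1, which interconverts the triose phosphates, had 668, 492, 380.3, 449 and 344 CPM in CBPi gMDSC and 126, 116, 222, 136 and 117 CPM in vehicle gMDSC. It rose 3.34-fold without overlap (log2 fold change 1.74 ± 0.23, adjusted p = 0.00064). In mMDSC it rose 1.41-fold, with 318, 281, 329.8, 257 and 260.3 CPM under CBPi and 242, 209.9, 185, 213 and 170 CPM with vehicle (log2 fold change 0.49 ± 0.12, adjusted p = 0.0226). The rise was larger in gMDSC by a log2 difference of 1.20 ± 0.27, adjusted p = 0.0355.

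Gapdh, Pgk1 and Pgam1, the enzymes from glyceraldehyde phosphate to phosphoglycerate, had few counts, and most of their sequence is shared. Here 94.2% of the coding 50-base words of Gapdh, 100% of those of Pgk1 and 100% of those of Pgam1 also occur in transcripts of other annotated genes. Their levels, 41 to 335 counts for Gapdh, 67 to 206 for Pgk1 and 5 to 71 for Pgam1 in a library, are therefore given as uncertain. Gapdh had 21.7, 10.5, 9.68, 9.04 and 9.23 CPM in CBPi gMDSC and 4.10, 3.55, 8.96, 4.41 and 3.55 CPM in vehicle gMDSC. It passed with a log2 fold change of 1.33 ± 0.38, adjusted p = 0.0438, but lost the call in 9 of the 10 fits that left out a library (adjusted p from 0.00723 to 0.13). In mMDSC it had 11.0, 5.39, 8.08, 5.05 and 6.11 CPM under CBPi and 3.53, 3.80, 4.98, 3.41 and 2.63 CPM with vehicle, groups that did not overlap but did not pass (log2 fold change 0.95 ± 0.29, adjusted p = 0.0612). Pgk1 and Pgam1 did not pass in either population, at log2 fold changes of 0.36 and 1.62 in gMDSC and 0.07 and 0.29 in mMDSC. Eno1, the main enolase, shares 83.3% of its coding words and had 215, 162, 108, 124 and 107 CPM in CBPi gMDSC, against 98.0, 80.7, 127, 84.2 and 75.2 CPM in vehicle gMDSC (log2 fold change 0.66 ± 0.22, adjusted p = 0.0725). In mMDSC its values were 100.3, 89.6, 93.2, 87.3 and 81.5 CPM under CBPi and 105, 109, 109, 96.0 and 86.7 CPM with vehicle (log2 fold change -0.17 ± 0.10, adjusted p = 0.375). Eno2, the enolase best known from neurons, shares none of its coding words and rose in both populations. It had 47.5, 56.1, 22.4, 27.0 and 22.3 CPM in CBPi gMDSC, against 6.6, 6.09, 11.3, 7.51 and 1.36 CPM in vehicle gMDSC (log2 fold change 2.47 ± 0.47, adjusted p = 0.00609). The mMDSC values were 8.77, 16, 9.31, 11.5 and 9.62 CPM in CBPi mMDSC, against 3.49, 3.88, 7.67, 1.92 and 5.39 CPM in vehicle mMDSC (log2 fold change 1.30 ± 0.34, adjusted p = 0.0298), without overlap in either. By CPM per kb Eno2 made up 22.8% ± 4.12 of the enolases in CBPi gMDSC, against 7.69% ± 3.21 in vehicle gMDSC. Among mMDSC the share was 13.2% ± 3.23 in CBPi mMDSC, against 5.18% ± 2.35 in vehicle mMDSC. Since Eno1 shares most of its coding words and Eno2 none, reads of Eno1 may be undercounted and the size of these shares is uncertain. Pkm, the pyruvate kinase of these cells, had 1704, 1277, 909.8, 929 and 899 CPM in CBPi gMDSC and 767, 721, 815, 821 and 572 CPM in vehicle gMDSC, groups that did not overlap. The adjusted p was just above the threshold (log2 fold change 0.67 ± 0.20, adjusted p = 0.0509).

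Ldha and Ldhb encode the subunits of lactate dehydrogenase, of which the first is known to favour making lactate and the second to favour using it. They moved in opposite directions in gMDSC. Ldha had 953, 701, 499.7, 549 and 417 CPM in CBPi gMDSC, against 274, 239, 339, 282 and 266 CPM in vehicle gMDSC. It rose 2.28-fold without overlap (log2 fold change 1.19 ± 0.21, adjusted p = 0.00449). Ldha in mMDSC had 343, 385, 353, 349 and 355 CPM under CBPi and 358, 325, 332, 299.6 and 326 CPM with vehicle (log2 fold change 0.11 ± 0.09, adjusted p = 0.503). The responses differed by 1.03 ± 0.23, adjusted p = 0.0391 on the log2 scale. Ldhb had 2.52, 3.66, 5.22, 4.47 and 4.42 CPM in CBPi gMDSC, against 13.4, 9.80, 11.8, 8.21 and 13.6 CPM in vehicle gMDSC. It had 3.80, 3.93, 6.42, 5.70 and 7.33 CPM in CBPi mMDSC, against 18.6, 24.0, 14.4, 23.0 and 14.6 CPM in vehicle mMDSC. Its groups did not overlap in either population. It fell 2.72-fold in gMDSC (log2 fold change -1.44 ± 0.31, adjusted p = 0.0129) and 3.5-fold in mMDSC (log2 fold change -1.81 ± 0.24, adjusted p = 0.00058). The interaction of Ldhb did not pass (0.32 ± 0.36, adjusted p = 0.804). By CPM per kb Ldhb made up 0.793% ± 0.366 of the pair in CBPi gMDSC, against 4.23% ± 0.914 in vehicle gMDSC, and 1.62% ± 0.472 in CBPi mMDSC, against 5.89% ± 1.52 in vehicle mMDSC, so Ldha was nearly the whole of it in all groups. Reads of 28.4% of the Ldha words and 35.6% of the Ldhb words could also stem from related genes. Slc16a3, the lactate exporter MCT4, had 2332, 1978, 1212, 1264 and 1120.2 CPM in CBPi gMDSC and 988, 822, 1298, 1097 and 612 CPM in vehicle gMDSC, which overlapped (log2 fold change 0.76 ± 0.25, adjusted p = 0.0708). It had 155, 246, 195, 187 and 167 CPM in CBPi mMDSC, against 197, 120, 106, 111 and 135 CPM in vehicle mMDSC (log2 fold change 0.50 ± 0.18, adjusted p = 0.122). Slc16a1, the transporter MCT1 that moves lactate either way, had 1.60 to 16.9 CPM in CBPi gMDSC and 0 to 13.3 CPM in vehicle gMDSC and did not pass in either population.

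**Figure D3:**
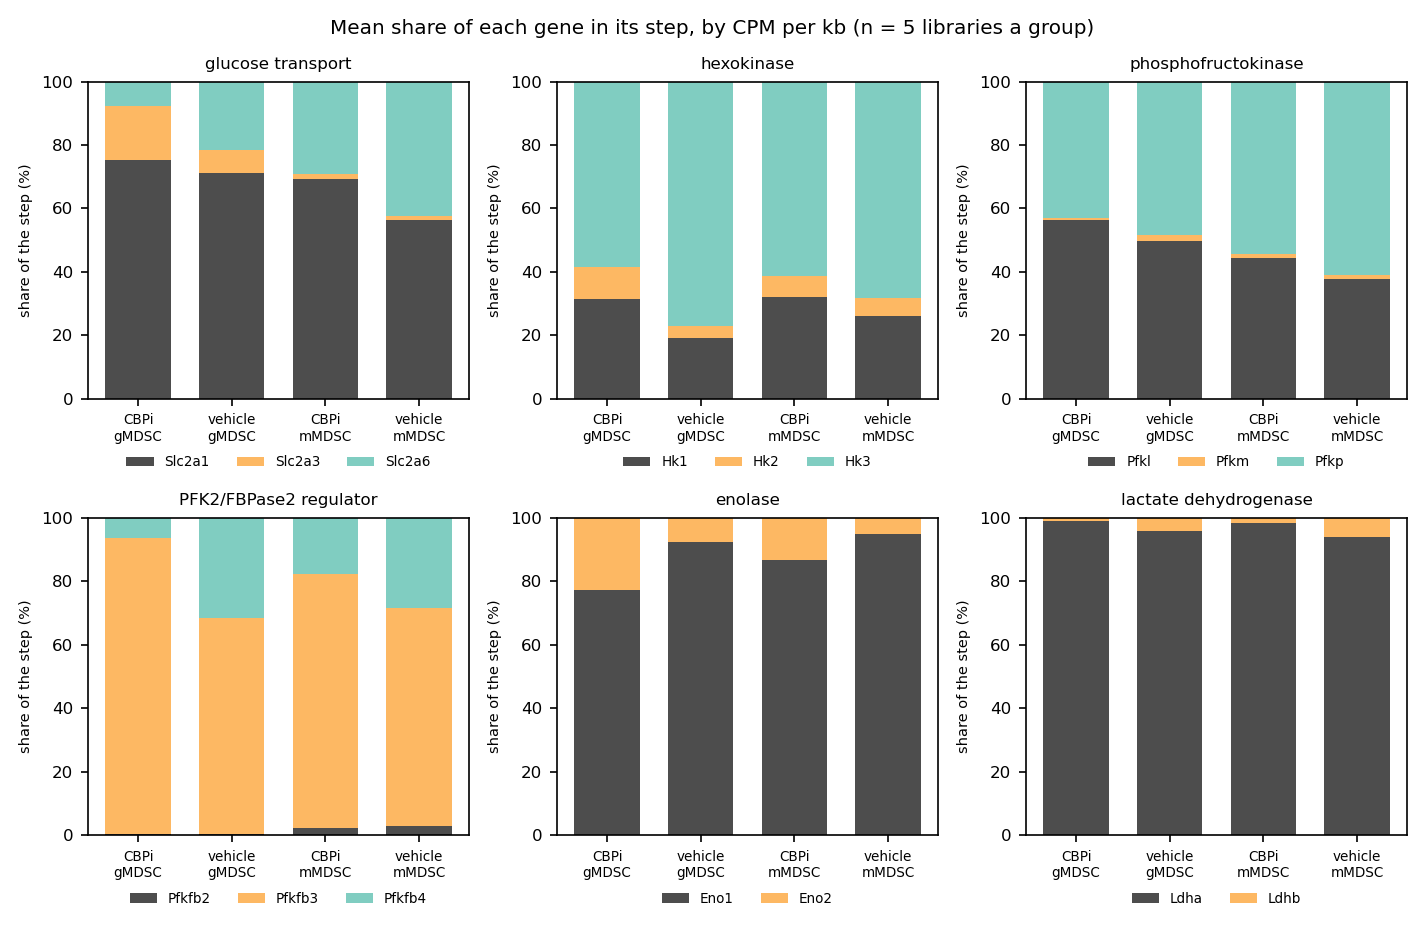
Mean share (y axis, percent, n = 5 libraries a group) of each member in its step by CPM per kb of gene width, for CBPi gMDSC, vehicle gMDSC, CBPi mMDSC and vehicle mMDSC from left to right. Pfkfb3 fills 93.2% of the PFKFB bar of CBPi gMDSC and 68.2% of that of vehicle gMDSC, and the shares of Hk3, Slc2a6 and Ldhb are smaller under CBPi in both populations.

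Pdk1, the kinase that shuts pyruvate dehydrogenase in hypoxic cells, had 40.6, 27.5, 23.0, 24.5 and 15.1 CPM in CBPi gMDSC, against 2.70, 10.7, 14.2, 5.39 and 11.3 CPM in vehicle gMDSC. It rose 2.99-fold without overlap (log2 fold change 1.58 ± 0.41, adjusted p = 0.0309), but lost the call in 5 of the 10 fits that left out a library (adjusted p from 0.0143 to 0.0836). In mMDSC it rose 1.90-fold, with 10.3, 13.1, 11.2, 11.6 and 9.90 CPM under CBPi and 5.99, 4.81, 5.18, 5.22 and 8.17 CPM with vehicle (log2 fold change 0.92 ± 0.21, adjusted p = 0.0154), and passed whichever library was left out. Pdk3, the most abundant of these kinases per kb in every group, had 69.1, 46.5, 43.1, 38.2 and 56.7 CPM in CBPi gMDSC and 55.8, 32.2, 26.7, 36.7 and 31.5 CPM in vehicle gMDSC. For mMDSC its values were 79.6, 89.5, 109, 89.2 and 85.0 CPM under CBPi and 82.5, 87.6, 69.2, 85.0 and 76.8 CPM with vehicle. Pdha1, the subunit the kinases act on, had 37.8 ± 5.62 CPM in CBPi gMDSC, 35.0 ± 1.33 CPM in vehicle gMDSC, 53.4 ± 4.22 CPM in CBPi mMDSC and 58.8 ± 3.99 CPM in vehicle mMDSC (SD, n = 5 each). Neither Pdk3 nor Pdha1 passed under CBPi. Gys1, the glycogen synthase outside the liver, had 93.0, 110.4, 49.1, 55.3 and 58.8 CPM in CBPi gMDSC, against 22.9, 24.4, 6.29, 8.30 and 26.6 CPM in vehicle gMDSC. All CBPi libraries stood above all vehicle libraries, and Gys1 rose 4.21-fold (log2 fold change 2.08 ± 0.40, adjusted p = 0.00747). The mMDSC had 16.1, 40.9, 14.1, 28.3 and 25.9 CPM under CBPi and 11.9, 11.9, 8.55, 13.5 and 18.4 CPM with vehicle, which overlapped (log2 fold change 0.96 ± 0.30, adjusted p = 0.0681). Pygl, the phosphorylase that breaks glycogen down, had 384 ± 99.2 CPM in CBPi gMDSC and 393 ± 70.8 CPM in vehicle gMDSC (SD, n = 5 each), with a log2 fold change of 0.01 ± 0.19, adjusted p = 0.987.

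The CBPi gMDSC libraries were not alike in these genes. Library 6 had the highest CPM of its group for 24 of the 32 members tested and library 7 was among the top 2 for 24, while libraries 9 and 10 were lowest for 10 and 15. The same libraries 6 and 7 had the highest summed neutrophil markers of their group, 16170 and 12540 CPM, against 8769 to 9489 CPM in the other 3, and the lowest summed macrophage markers, 16110 and 18560 CPM, against 27360 to 31690 CPM. Leaving out both, which was decided after seeing the data, left 9 members that rose, namely Slc2a1, Slc2a3, Gpi1, Pfkl, Pfkp, Pfkfb3, Aldoc, Tpi1 and Ldha, and 0 that fell. The share of all genes called in that fit is not given here. Of the calls lost, the log2 fold change without both was -1.23 for Ldhb, 1.65 for Gys1, 1.27 for Pdk1, 0.84 for Aldoa, 0.81 for Hk1 and 0.97 for Gapdh, against -1.44, 2.08, 1.58, 1.10, 1.18 and 1.33 with all libraries. Eno2 had 1.93 without both, against 2.47 with all, and Hk2 1.19, against 1.95. Slc2a1, whose call held, had 0.78, against 1.34. Of the 6 interactions 1 was left, Pfkfb3, at a log2 difference of 1.73, against 2.37 with all. The lost interaction of Aldoc was 3.76 without both, against 3.66 with all, while those of Pfkl, Pfkp, Tpi1 and Ldha were 1.09, 1.01, 0.95 and 0.69, against 1.56, 1.52, 1.20 and 1.03. Across the groups, the summed neutrophil markers ran from 8769 to 16170 CPM in CBPi gMDSC and from 9977 to 36760 CPM in vehicle gMDSC, with 0 of the 10 at 0 counts throughout a group, and 0 of 10 rose and 1, Cxcr2, fell. The summed macrophage markers ran from 16110 to 31690 CPM in CBPi gMDSC and from 33980 to 77650 CPM in vehicle gMDSC, without overlap, and 3 of 10 (Ms4a7, Trem2 and Apoe) fell. Apoe made up most of these sums, at 9450 to 18980 CPM in CBPi gMDSC and 20620 to 55680 CPM in vehicle gMDSC. The groups of Ms4a7, C1qb and C1qc did not overlap either, while those of C1qa, Adgre1 and Mrc1 did. Mertk overlapped too, with a higher mean under CBPi (43.2 CPM) than with vehicle (23.3 CPM). In mMDSC the macrophage sums were 18860 to 23760 CPM under CBPi and 22360 to 32030 CPM with vehicle. Of these markers 4 of 10 fell and 1 rose. The monocyte sums of mMDSC were 3967 to 4949 CPM under CBPi and 5766 to 6504 CPM with vehicle, where 4 of 10 fell. In gMDSC the monocyte sums were 2739 to 3160 CPM under CBPi and 2590 to 4548 CPM with vehicle. There 2 of 10 rose, F13a1 and Vcan, and 4 fell, Ccr2, Ly6c2, Ly6c1 and Cx3cr1. F13a1 had 12.66 to 52.86 CPM in CBPi gMDSC and 0.7627 to 4.415 CPM in vehicle gMDSC. Markers of other cell types were far less abundant, but some of their sums also differed without overlap. Epithelial markers summed to 6.29 to 11.6 CPM in CBPi gMDSC and 23.7 to 55.4 CPM in vehicle gMDSC, where 2 of 4 tested, Krt18 and Krt8, fell. Erythroid and platelet markers summed to 81.4 to 261 CPM in CBPi mMDSC and 25.0 to 52.2 CPM in vehicle mMDSC, where 1 of 3 tested, Pf4, rose. Neutrophil markers summed to 243 to 340 CPM in CBPi mMDSC and 346 to 417 CPM in vehicle mMDSC. Dendritic cell markers in gMDSC overlapped, with medians of 38.7 CPM under CBPi and 17.6 CPM with vehicle, and 1 of 5 tested, Ccr7, rose. The genes of the sorting antigens summed to 2694 to 3053 CPM in CBPi mMDSC and 4146 to 4561 CPM in vehicle mMDSC. Of these genes 4 of 5 tested fell in mMDSC and 2 of 6 in gMDSC. The part of these cell type markers in the glycolytic changes was not tested. Vehicle gMDSC library 3 stood apart as well, with the highest neutrophil and macrophage sums of its group (36760 and 77650 CPM). It was highest for 12 and lowest for 12 of the 32 members. Leaving it out brought Eno1, Pkm and Slc16a3 past the threshold as higher, with adjusted p values of 0.0263, 0.0461 and 0.0358. The mMDSC libraries were uneven too. Vehicle mMDSC library 1 was highest for 15 of the 32 members and library 4 lowest for 17. CBPi mMDSC library 7 was highest for 19. Without vehicle mMDSC library 1, Pfkl, Aldoc and Slc16a3 passed as higher in mMDSC (adjusted p = 0.0342, 0.00341 and 0.0186). Eno2 lost its call in that fit. In mMDSC Gys1 passed as higher in 2 fits that left out a library (adjusted p down to 0.0315). Pfkfb4 passed as lower in 1.

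**Figure D4:**
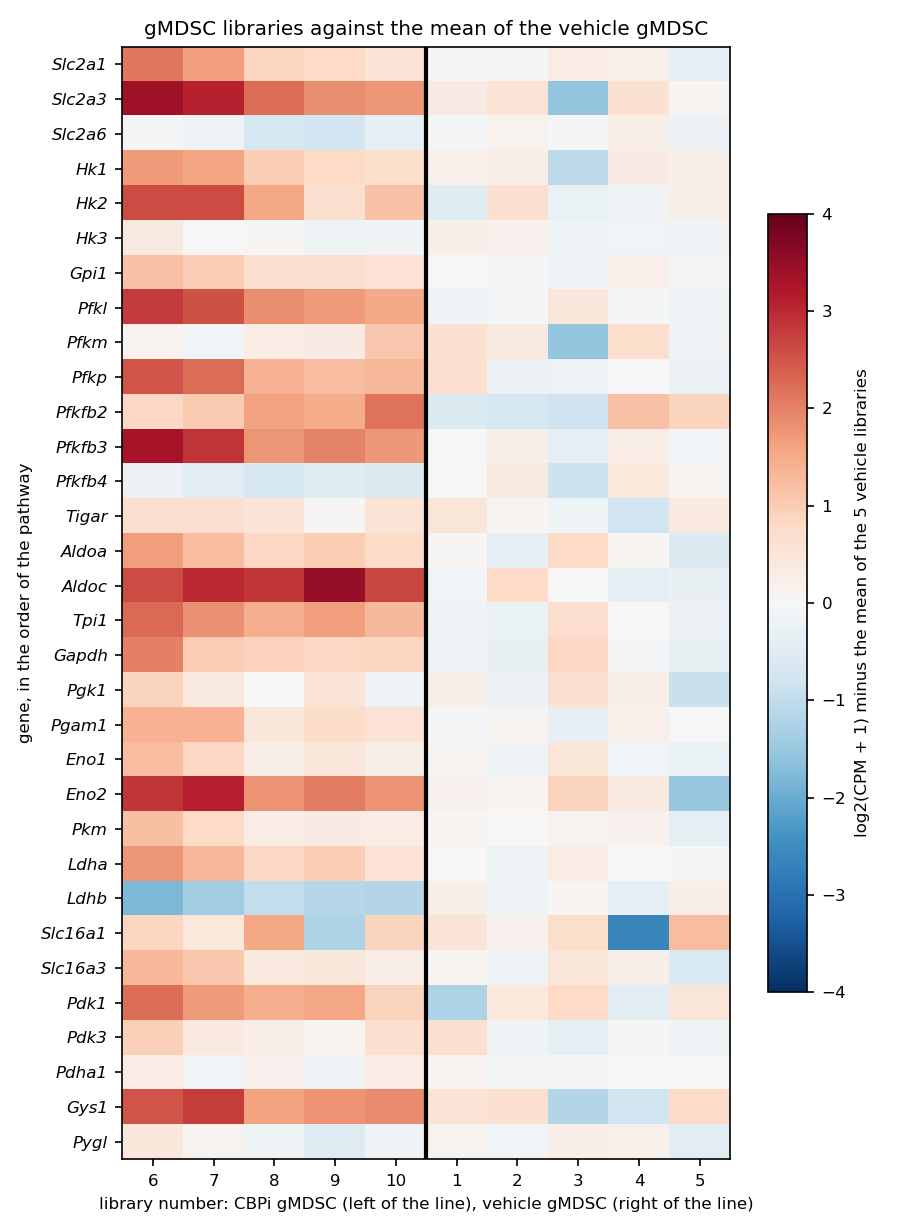
Heat map of the 32 members tested (rows, pathway order) in the 5 CBPi gMDSC libraries (left) and the 5 vehicle gMDSC libraries (right); colour is log2(CPM + 1) minus the mean of the vehicle gMDSC libraries. Libraries 6 and 7 are the reddest columns for most members, Ldhb is blue in all 5 CBPi libraries, and Hk3, Pdha1 and Pygl show little colour.

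The populations also differed in these genes with vehicle alone. Of the members, 9 were higher in gMDSC and 4 lower, where 13.6% of all genes tested were higher and 8.08% lower. Among the transporters, Slc16a3 was 7.28-fold higher in gMDSC (log2 fold change 2.86 ± 0.23, adjusted p = 2.05e-06), Slc2a3 16.7-fold (4.07 ± 0.53, adjusted p = 0.000121) and Slc2a1 3.91-fold (1.97 ± 0.18, adjusted p = 6.49e-06). Pygl, of glycogen breakdown, was 5.58-fold higher (2.48 ± 0.19, adjusted p = 1.37e-06), at 423, 356, 458, 441 and 287 CPM in vehicle gMDSC and 97.8, 58.2, 68.1, 55.0 and 76.9 CPM in vehicle mMDSC. Pfkfb4, Pfkfb3, Slc2a6, Hk3 and Pkm were higher too, by log2 fold changes of 1.47, 1.27, 0.67, 0.57 and 0.56, of which Hk3 failed the threshold in 8 of the 10 fits that left out a library (adjusted p up to 0.121). Aldoc, Pdk3, Pfkp and Pdha1 were lower, by -4.49, -1.12, -0.79 and -0.73. Most enzymes between hexokinase and lactate dehydrogenase did not pass with vehicle, among them Hk1, Hk2, Gpi1, Pfkl, Aldoa, Tpi1 and Ldha.

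Under CBPi 21 members were higher in gMDSC than in mMDSC and 4 lower, where 20.1% of all genes tested were higher and 19.1% lower. The median log2 difference of the members was 0.851 under CBPi, against a median of -0.0499 over all genes, and 0.0608 with vehicle, against -0.0556 over all genes. Slc2a3 was 82.6-fold higher in gMDSC (log2 fold change 6.37 ± 0.50, adjusted p = 6.48e-07), Pfkfb3 12.7-fold (3.67 ± 0.31, adjusted p = 1.45e-06) and Slc16a3 8.61-fold (3.11 ± 0.23, adjusted p = 3.41e-07). Hk1, Hk2, Gpi1, Pfkl, Aldoa, Tpi1, Eno1, Eno2, Ldha, Pdk1 and Gys1, none of which passed with vehicle, were higher by log2 fold changes of 0.59 (Gpi1) to 1.78 (Hk2). Of these only Pfkl, Tpi1 and Ldha passed the interaction. For the others a change in the gap between the populations was not shown. Pfkp, lower in gMDSC with vehicle (-0.79 ± 0.18, adjusted p = 0.00724), was higher in gMDSC under CBPi (0.77 ± 0.23, adjusted p = 0.0171), at 941, 775, 433, 386 and 419.5 CPM in CBPi gMDSC and 328, 409.7, 371, 362 and 323 CPM in CBPi mMDSC. The call of Pfkp under CBPi was lost without CBPi gMDSC library 7 (adjusted p = 0.0532), and without libraries 6 and 7 its log2 fold change was 0.25 (adjusted p = 0.117). Tigar, Aldoc, Pdk3 and Pdha1 were lower in gMDSC, by -1.17, -0.84, -0.78 and -0.44. These comparisons share libraries with those of CBPi against vehicle and are not independent of them.

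Per kb of gene width, Slc16a3 and Aldoa headed the members in both gMDSC groups and Aldoa and Ldha in both mMDSC groups. This order describes the deposited counts, since how reads of shared sequence were counted is not given. Ranks are uncertain for members that share much of their coding sequence with other genes. Besides Gapdh, Pgk1 and Pgam1, these include Eno1 (83.3% of coding 50-base words), Pkm (52.9%) and Gpi1 (40.9%). In CBPi gMDSC Aldoa averaged 1228 ± 338 CPM per kb, Slc16a3 1119 ± 383, Slc2a1 958 ± 463 and Pfkfb3 638 ± 332 (SD, n = 5 each), and these neighbours in the order lay within 1 SD of each other. In vehicle gMDSC the order was Slc16a3 at 682 ± 185, Aldoa at 591 ± 230.3 and Slc2a1 at 388 ± 66.6 CPM per kb, with Pfkfb3 at 115 ± 19.8. In CBPi mMDSC Aldoa averaged 729 ± 78.2 CPM per kb, followed by Ldha at 329 ± 15 and Tpi1 at 321 ± 37.0, which were within 1 SD of each other. In vehicle mMDSC Aldoa averaged 502 ± 89.1 CPM per kb, Ldha 302 ± 19.1 and Tpi1 227 ± 31.1.

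Gene lists next to glycolysis did not move as one. They were chosen with earlier results of these data known, so their counts are descriptions. Over all genes tested under CBPi, 4.18% rose and 5.52% fell in gMDSC, and 3.02% rose and 5.54% fell in mMDSC. In gMDSC 10 of 14 genes of oxygen sensing and its known targets rose under CBPi and 0 fell, with a median log2 fold change of 1.80, and in mMDSC 5 of 14 rose and 0 fell, with a median of 0.417. Ndrg1, a hypoxia-induced gene, had 229.6, 187, 117, 135 and 123 CPM in CBPi gMDSC, against 28.9, 34.2, 27.0, 28.2 and 28.8 CPM in vehicle gMDSC (log2 fold change 2.46 ± 0.21, adjusted p = 2.23e-05). Ero1a, an oxidase of the endoplasmic reticulum, rose by 3.50 ± 0.36, adjusted p = 0.000104, and Vegfa, the vascular growth factor, by 2.89 ± 0.32, adjusted p = 0.000162. The same 3 had the smallest p in mMDSC, at log2 fold changes of 1.15 (Vegfa), 0.84 (Ndrg1) and 0.64 (Ero1a). The responses of 6 of the 14 were larger in gMDSC than in mMDSC, where 0.497% of all genes tested were. Among the 6 were Ero1a (log2 difference 2.81 ± 0.40, adjusted p = 0.00153), Ndrg1 (1.58 ± 0.25, adjusted p = 0.00339) and P4ha1, a collagen hydroxylase (1.69 ± 0.27, adjusted p = 0.00339).

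Of the other glycogen genes, 3 of 16 tested rose in gMDSC and 1 fell, where 4.18% of all genes tested rose and 5.52% fell. A count of 1 in this or a following list is not read as a result about that list, given such shares. Pgm1, which links glucose 1-phosphate and glucose 6-phosphate, rose by 1.88 ± 0.21, adjusted p = 0.000254, and Gbe1, the glycogen branching enzyme, by 2.08 ± 0.36, adjusted p = 0.00433, while Ppp1r3d, a glycogen-targeting subunit of protein phosphatase 1, fell (-1.35 ± 0.24, adjusted p = 0.00504). In mMDSC 1 of 16 rose, Pgm1 (0.59 ± 0.15, adjusted p = 0.0291), and 0 fell. Of 10 pentose phosphate genes 0 rose in either population, 2 fell in gMDSC, the transaldolase Taldo1 (-0.90 ± 0.22, adjusted p = 0.0215) and the lactonase Pgls (-0.83 ± 0.24, adjusted p = 0.0499), and 1 fell in mMDSC, Taldo1 (-0.41 ± 0.11, adjusted p = 0.0358). By edgeR 0 of 16 TCA cycle genes passed under CBPi in gMDSC or mMDSC (median log2 fold changes -0.0623 and -0.0839). At an unadjusted p under 0.05, 1 was higher and 4 were lower in gMDSC, and 0 were higher and 3 lower in mMDSC. Of the genes that bring pyruvate into mitochondria, 1 of 9 tested rose in gMDSC, Pdhb (0.58 ± 0.16, adjusted p = 0.0354), 1 of 11 rose in mMDSC, Pdk2 (0.99 ± 0.18, adjusted p = 0.00388), and 0 fell in either. Of 22 other isoforms of glycolytic enzymes and transporters, 11 could be tested in gMDSC with 0 passing by edgeR and 1 lower at an unadjusted p under 0.05. In mMDSC 10 could be tested, where Bpgm rose (1.11 ± 0.29, adjusted p = 0.0301) and Eno3 fell (-1.41 ± 0.34, adjusted p = 0.0226).

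**Figure D5:**
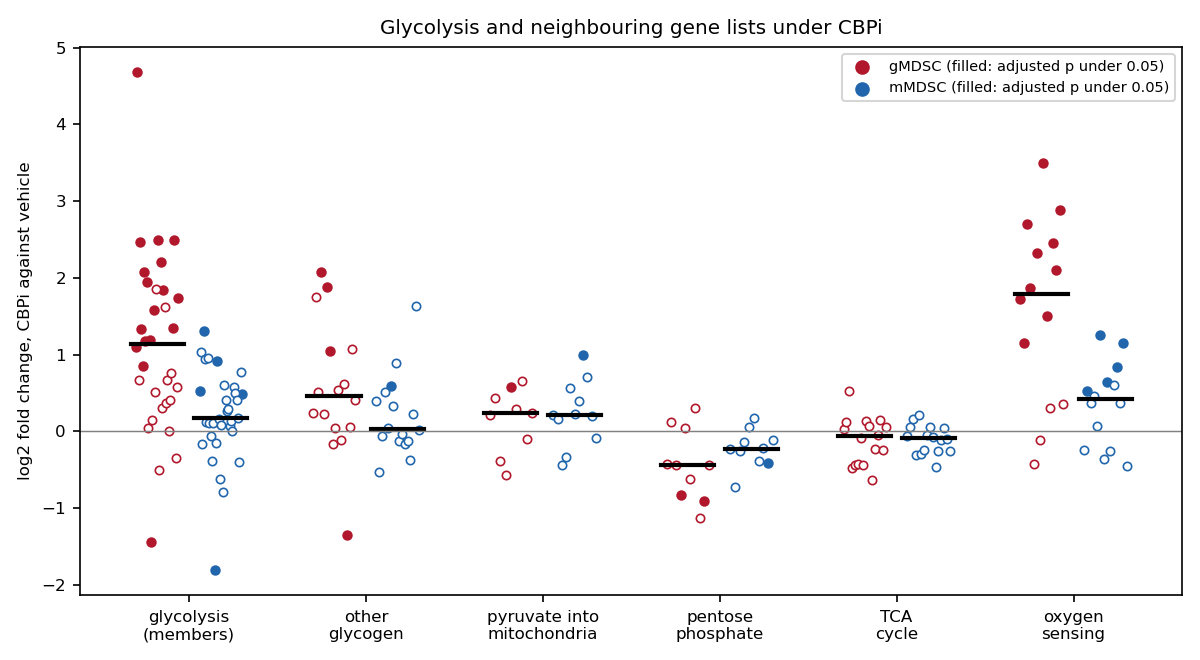
Log2 fold change of CBPi against vehicle (y axis) of single genes in the members and 5 neighbouring lists (x axis), in gMDSC (red) and mMDSC (blue); filled points have adjusted p under 0.05 and black bars are medians. The medians of the members are 1.14 in gMDSC and 0.169 in mMDSC, those of the oxygen sensing list 1.80 and 0.417, and those of the TCA cycle list lie near 0.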

How the data were processed

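Poly-A RNA of mMDSC and gMDSC sorted from tumours was sequenced from TruSeq V2 libraries, per the labels' protocols. Reads were aligned with GSNAP to GRCm38, per the submitters' processing notes, which give no version. How reads were counted, and whether strand was used, is not given here. The deposited files hold whole-number counts per gene, without normalization, and RPKM values that the authors computed and deposited beside them, which were used only to recover each library's RPKM denominator (the deposited counts sum to 50.25% to 62.44% of it). Symbols and coordinates came from a RefSeq table of GRCm38.p6, which matched 21647 of 23090 IDs.

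Tests used the quasi-likelihood method of edgeR 4.0.16 under R 4.3.3 (glmQLFit and glmQLFTest, TMM, filterByExpr with minimum count 10 and total 15), with Benjamini-Hochberg adjustment over all genes tested and a threshold of 0.05. The script was tested on simulated data with known changes in 200 genes. The real comparisons under CBPi called more, 489 higher and 646 lower in gMDSC and 360 and 660 in mMDSC. The adjustment depends on how many genes change, so the recovered shares hold for the simulated setting. For CBPi against vehicle the script recovered 17.2% of 2-fold changes in gMDSC and 51.5% in mMDSC. It recovered 1.49% and 1.54% of 1.5-fold changes and 74.6% and 84.6% of 4-fold changes. A gene that did not pass is therefore not shown to be unchanged. CBPi was compared with vehicle in each population, gMDSC with mMDSC within each treatment, and the responses by an interaction over 20 libraries. The standard error is the log2 fold change divided by the square root of F. Genes share sequence where 50-base words of their GENCODE M21 coding sequence occur in transcripts of other genes. No pair of libraries in a group looked like 1 library deposited again (lowest chi-square over its degrees of freedom 20.7), which does not show that they came from separate mice. Alternatives were RLE scaling, DESeq2 1.42.0, no filter, a fit over 20 libraries, a replicate block and leaving out libraries. Members past the threshold under CBPi or in the interaction, and the member with the highest CPM per kb of each step with several isoforms, are given by library. From each pathway list up to 3 genes with the smallest p are named, others having been chosen after their values were seen. The members and lists were chosen with earlier results of these data known.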

Additional observations from a re-analysis of the deposited data

Results flagged for a closer look

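Single libraries stood apart within their group of 5 in 9 of the 128 groups of members examined, by a gap to the nearest library of more than 0.71 of the range, which chance alone gives in about 1 in 20 groups. CBPi mMDSC library 6 was low for Slc2a6, with 51.3 CPM where the other libraries of its group held 87.0 to 99.8 CPM. CBPi gMDSC library 10 was high for Pfkm, at 12.8 CPM against 5.01 to 7.13 CPM, and CBPi gMDSC library 6 was high for Gapdh, at 21.7 CPM against 9.04 to 10.5 CPM. Vehicle gMDSC library 3 was low for Hk1, at 45.5 CPM against 109 to 119 CPM, and high for Pfkl, at 215 CPM against 137 to 150 CPM, for Tpi1, at 222 CPM against 116 to 136 CPM, and for Gapdh, at 8.96 CPM against 3.55 to 4.41 CPM. Vehicle gMDSC library 1 was high for Pfkp, at 265 CPM against 138 to 164 CPM. Vehicle gMDSC library 2 was high for Aldoc, at 1.27 CPM against 0 to 0.286 CPM.

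The response to CBPi differed between gMDSC and mMDSC, by the interaction test of edgeR, for 6 members. Over all genes tested 0.497% were higher in gMDSC by this test and 0.229% lower. The log2 difference, gMDSC minus mMDSC, was 1.56 for Pfkl, 1.52 for Pfkp, 2.37 for Pfkfb3, 3.66 for Aldoc (3.28 to 5.18 with single libraries left out), 1.20 for Tpi1 and 1.03 for Ldha.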

How the results depend on the processing

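In gMDSC the 16 members that rose under CBPi were 20 by DESeq2, 16 with RLE scaling, 15 without a filter, 20 in a fit over all 20 libraries, 13 to 19 with single libraries left out, and 9 without CBPi libraries 6 and 7; the 1 that fell was 0 without those 2 and 1 to 2 with single libraries left out. In mMDSC the 4 that rose were 7 by DESeq2, 0 in the fit over all 20 libraries and 1 to 6 with single libraries left out, and the 1 that fell was 2 by DESeq2 and 1 to 2. The 6 interactions were 9 by DESeq2, 1 without CBPi gMDSC libraries 6 and 7, and 1 to 7. The 4 members lower in vehicle gMDSC than in vehicle mMDSC were 7 in the fit over all 20 libraries. With the replicate number of the titles as a block the interactions were 3, and the gMDSC against mMDSC counts 9 and 4 with vehicle and 22 and 4 under CBPi. The shares of all genes called in the alternatives, here and above, are not given. Whether the members' excess over all genes changed with the setting is therefore not shown. Same-numbered libraries correlated in their deviations by only -0.0308 to 0.168, and 3 of 10 matched their own number best. These values cannot exclude that same-numbered libraries came from the same mouse, so a pairing was neither shown nor excluded. The main tests used no pairing. Of 160 member results 21 changed sign in some alternative, and 0 of these had passed. For gMDSC under CBPi these were Hk3 (-0.065 without libraries 6 and 7, -0.0509 to 0.106 with single libraries left out) and Pygl (-0.243 without both, -0.0328 in the fit over 20 libraries, -0.133 to 0.115). For mMDSC they were, with single libraries left out, Slc2a3 (-0.0881 to 0.439), Hk1 (-0.0308 to 0.244), Hk2 (-0.226 to 0.144), Pfkfb3 (-0.039 to 0.175), Pgk1 (-0.0304 to 0.144) and Pygl (-0.076 to 0.148). For vehicle gMDSC against vehicle mMDSC they were Hk1 (0.00898 with RLE and 0.00455 by DESeq2, -0.134 to 0.157), Pfkl (-0.293 to 0.0507), Pfkm (-0.0513 to 0.393) and Aldoa (-0.00934 to 0.37), and under CBPi Pfkm (-0.0353 in the fit over 20 libraries, -0.255 to 0.168). For the interaction they were Slc2a6 (-0.205 without libraries 6 and 7, -0.0906 to 0.141), Pfkm (0.0612 with the replicate block, 0.0776 without 6 and 7, -0.425 to 0.0993), Tigar (-0.444 to 0.0256), Gapdh (-0.0276 without 6 and 7), Pgk1 (-0.00676 without 6 and 7), Slc16a1 (0.00553 with the replicate block, -0.557 to 0.148), Slc16a3 (-0.187 without 6 and 7) and Pygl (-0.188 to 0.101). The causes were not tested. Leaving out libraries 6 and 7 was chosen after seeing the data.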

Other observations

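Of 11576 genes tested with vehicle 8.08% were lower in gMDSC than in mMDSC, and of 11895 tested under CBPi 19.1% were. With vehicle 6 of 16 TCA cycle genes were lower in gMDSC and 0 higher, led by Suclg1, a subunit of succinyl-CoA ligase (log2 fold change -0.76 ± 0.15, adjusted p = 0.00264), and under CBPi 11 of 16 were lower and 0 higher, led by Idh3a, a subunit of isocitrate dehydrogenase (-1.12 ± 0.17, adjusted p = 0.000206). Of the genes that bring pyruvate into mitochondria, 2 of 10 tested were lower in gMDSC with vehicle and 3 of 11 under CBPi, with 0 higher in either. Among the glycogen genes, Ppp1r3b and Ppp1r3d, which target protein phosphatase 1 to glycogen, were higher in gMDSC by 3.81 ± 0.25, adjusted p = 4.53e-07 and 3.32 ± 0.30, adjusted p = 6.17e-06 with vehicle.

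Hif1a, the oxygen-regulated subunit of the hypoxia-inducible factor, had 1744, 1347, 683, 730.4 and 626 CPM in CBPi gMDSC, against 438, 379, 220.1, 451 and 376 CPM in vehicle gMDSC, and rose (log2 fold change 1.5 ± 0.30, adjusted p = 0.00878). In mMDSC it had 266, 338, 244, 290 and 307 CPM under CBPi and 437, 297, 311, 290.4 and 373 CPM with vehicle (-0.25 ± 0.14, adjusted p = 0.328). CBPi gMDSC libraries 6 and 7 were the highest of their group for Hif1a. Library 6 was also among the top 2 of the group for 27 of the 32 members tested and library 7 for 24. Hif1a was singled out after its values were seen.

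Of the 33 members, 8 lie on chromosome 6, which is 24.2%, against 5.14% of all genes with coordinates. Eno2 (chr6:124760053-124769673) and Tpi1 (chr6:124810586-124814158) are 40.9 kb apart on GRCm38.p6, and Gapdh (chr6:125161852-125166467) follows 348 kb beyond Tpi1. Eno2 and Tpi1 both rose in both populations in the main fits, though their mMDSC calls were lost in some fits that left out a library.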
